A study of Mus musculus with 7 samples.

Results

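Most fibroblast growth factors are secreted ligands, and they pattern tissues around the early heart. Of their genes, 9 (Fgf3, Fgf4, Fgf8, Fgf9, Fgf10, Fgf15, Fgf16, Fgf17 and Fgf18) were followed here by name in a table of 48526 mouse genes. All 9 were found in the table, each under 1 identifier and each protein coding. RNA came from the dissected heart region of mouse embryos at embryonic day 8.5, with 1 library per embryo. The 4 controls carried 2 wild-type Hoxb1 alleles and were Nodal flox/+, that is 1 conditional and 1 intact Nodal allele. The 3 mutants were Hoxb1 Cre/+ and Nodal flox/nul, with the Cre recombinase on 1 Hoxb1 allele, 1 conditional Nodal allele and 1 null allele. Every embryo therefore carried a conditional Nodal allele, and all were of mixed genetic background. The recombinase is driven from Hoxb1, which is active in precursors of the posterior heart and in the trunk, so cells outside that lineage keep the conditional allele, and the mutants differ from the controls in Cre and in Hoxb1 as well as in Nodal. The comparison asks which transcripts of the heart region differ when Nodal, the left-side signal, is inactivated there.

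Most secreted FGFs bind a receptor tyrosine kinase together with heparan sulphate on the cell surface and activate the ERK kinase cascade. The cascade switches on ETS factors (Etv1, Etv4, Etv5) and its own inhibitors (the Sprouty genes, Dusp6). In the mouse embryo, Fgf8 and Fgf10 are known from the second heart field, the precursors that add cells to the ends of the heart tube, and Fgf8 is also needed for left-right patterning. Fgf9 and Fgf16 signal to growing heart muscle at later stages, Fgf3 and Fgf15 are known from the hindbrain and pharyngeal region, and Fgf4 from the tail end of the embryo and the pharyngeal endoderm.

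Values are normalised read counts, which the authors obtained by dividing gene counts by 1 size factor per library, and recovered library totals ran from 7155994 to 15122057 reads. The genotype was visible in Lefty2, a target of Nodal, with 227 to 717 reads per control and 5, 2 and 4 reads in mutants 1 to 3, while Nodal itself had 9, 3, 6 and 0 reads in the controls and none in any mutant. Heart muscle transcripts were abundant in every library: the summed normalised count of 10 muscle genes ran from 39826 to 116143 in controls and from 42889 to 87781 in mutants. Transcripts of the neural tube were present in unequal amounts. The mean log2 level of 13 measured neural tube genes was 5.40, 4.37, 8.12 and 4.76 in the 4 controls, in order, and 4.65, 7.56 and 8.07 in the 3 mutants. Control 3, mutant 2 and mutant 3 thus stood apart from the other 4 embryos. The females (controls 1 and 3, mutants 2 and 3) are all headed E8.5e in the table and the males (controls 2 and 4, mutant 1) all E8.5f, which means that sex cannot be told apart from substage. In such bulk tissue, fewer cells of a type and less RNA per cell cannot be told apart either.

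Fgf3, Fgf4 and Fgf15 lie in 1 cluster on chromosome 7. In GENCODE M21 (GRCm38), Fgf3 (ENSMUSG00000031074) spans 144838083 to 144844436, Fgf4 (ENSMUSG00000050917) 144847367 to 144865243 and Fgf15 (ENSMUSG00000031073) 144896531 to 144900953, all on the plus strand. No other protein-coding gene lies within these 62.9 kb. Fgf8 (ENSMUSG00000025219) is on chromosome 19 at 45736798 to 45742915, Fgf10 (ENSMUSG00000021732) on chromosome 13 at 118669791 to 118792115 and Fgf18 (ENSMUSG00000057967) on chromosome 11 at 33117430 to 33147400. Fgf9 (ENSMUSG00000021974) and Fgf17 (ENSMUSG00000022101) are on chromosome 14, at 58070547 to 58112720 and 70636203 to 70642268, and Fgf16 (ENSMUSG00000031230) is on chromosome X at 105764279 to 105774939.

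The 250 bases before the RefSeq start site (build GRCm38.p6) are shown for Fgf10 and Fgf18, the members in which the mutant and control values did not overlap, and for the neighbours Fgf3 and Fgf4, whose levels varied differently between embryos. The windows are chr13:118714449-118714698 (plus strand) for Fgf10, chr11:33147401-33147650 (minus strand) for Fgf18, chr7:144838362-144838611 (plus strand) for Fgf3 and chr7:144861136-144861385 (plus strand) for Fgf4. Windows of 5 of the 9 members were used. Capitals mark matches, on either strand, to 4 searched motifs. These were the TATA box (TATAAA), the CCAAT box, the GC box bound by SP1 (GGGCGG) and a site (AATCCACA) of FOXH1, the DNA-binding partner of the SMAD proteins in Nodal signalling.
Fgf10: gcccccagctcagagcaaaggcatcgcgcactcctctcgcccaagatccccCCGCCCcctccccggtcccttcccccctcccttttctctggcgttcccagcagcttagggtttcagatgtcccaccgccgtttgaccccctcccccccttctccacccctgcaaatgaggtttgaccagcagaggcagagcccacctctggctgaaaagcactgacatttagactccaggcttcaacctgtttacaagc
Fgf18: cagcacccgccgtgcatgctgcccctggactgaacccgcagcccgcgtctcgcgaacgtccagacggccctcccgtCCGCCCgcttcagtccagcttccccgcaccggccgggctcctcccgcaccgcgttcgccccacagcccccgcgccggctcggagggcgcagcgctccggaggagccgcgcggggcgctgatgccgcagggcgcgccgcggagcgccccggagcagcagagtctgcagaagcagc
Fgf3: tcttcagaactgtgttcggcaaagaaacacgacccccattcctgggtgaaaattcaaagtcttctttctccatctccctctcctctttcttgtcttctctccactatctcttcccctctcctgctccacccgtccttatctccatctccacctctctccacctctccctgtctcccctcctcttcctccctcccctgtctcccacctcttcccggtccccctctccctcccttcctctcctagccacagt
Fgf4: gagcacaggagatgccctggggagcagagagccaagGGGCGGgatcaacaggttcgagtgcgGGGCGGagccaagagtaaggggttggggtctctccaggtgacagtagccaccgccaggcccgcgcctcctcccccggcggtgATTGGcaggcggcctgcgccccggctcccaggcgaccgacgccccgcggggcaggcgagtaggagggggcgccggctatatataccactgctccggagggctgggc
GGGCGG or its complement stood once in the Fgf10 and once in the Fgf18 window and 2 times in the Fgf4 window, and CCAAT 1 time in the Fgf4 window. Neither the exact string TATAAA nor AATCCACA was found in these 4 windows. The Fgf4 window does hold tatatata near its end, a similar stretch that a search for TATAAA does not match. Among 32817 such windows of the table, 32.7% hold GGGCGG, 33.8% CCAAT, 12.4% TATAAA and 0.719% AATCCACA. The Fgf3 window, rich in C and T, held none of the 4.

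Fgf8 was the most abundant of the 9 transcripts in every embryo when levels were expressed per kilobase of annotated exon. Its level averaged 308 ± 48.8 (SD, n = 4) normalised counts per kilobase among controls; among mutants it was 330.5 ± 88.4 (SD, n = 3). Within each embryo it made up between 48.6% and 75.0% of the summed level of the 9 genes, with the lowest share in control 3. Fgf10 followed in mutants at 54.8 ± 4.74 (SD, n = 3), and Fgf15 in controls at 49.5 ± 50.9 (SD, n = 4), close to the 47.1 ± 1.95 (SD, n = 4) of Fgf10. Fgf15 exceeded Fgf10 in 2 of 7 embryos, control 3 and mutant 3, so the order of these neighbours was not fixed. Fgf3, at 37.98 ± 26.8 (SD, n = 4) in controls, was below Fgf10 in 6 of 7 embryos and below Fgf15 in 5 of 7. Fgf4 (11.53 ± 1.94, SD, n = 4, in controls) and Fgf16 (6.45 ± 2.40, SD, n = 4, in controls) came next, with Fgf4 above Fgf16 in 7 of 7 embryos although their ranges over embryos overlapped. Fgf17, Fgf9 and Fgf18 were lowest, at 2.65 ± 1.22, 1.31 ± 0.867 and 1.21 ± 1.01 (SD, n = 4) in controls, and overlapped each other. In mutants Fgf18 stood above Fgf17 and Fgf9, at 4.28 ± 1.497 against 2.80 ± 0.617 and 1.28 ± 0.921 (SD, n = 3), and in mutant 3 it exceeded Fgf16 (5.33 against 3.30). Exon lengths are the union of all annotated exons, and some gene models reach far upstream of the RefSeq start, so these levels per kilobase are approximate.

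**Figure D1:**
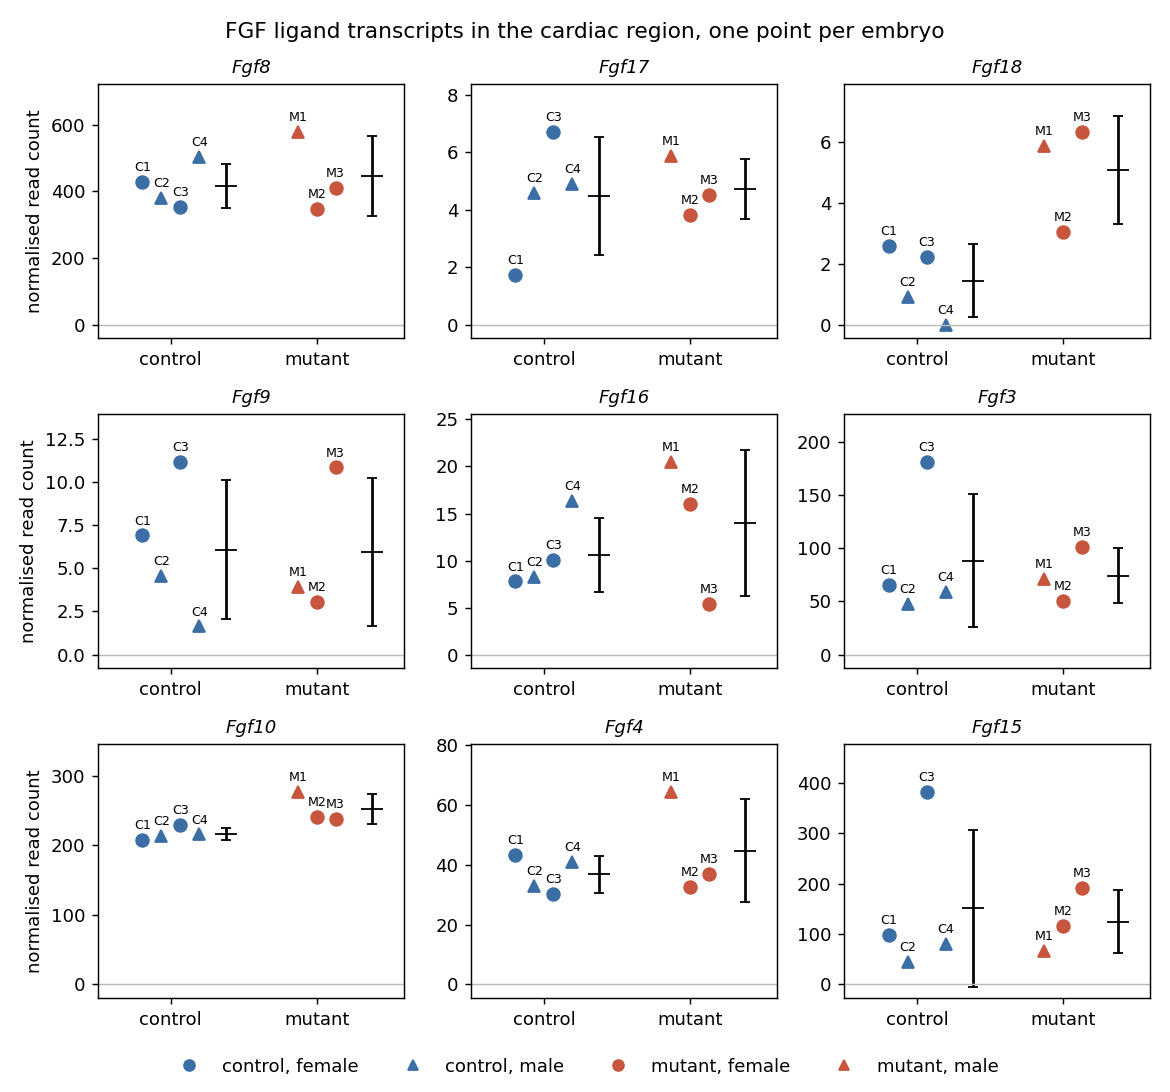
Normalised read count (vertical axis, linear, a separate scale per gene) of the 9 FGF ligand genes in each control (C1 to C4, blue) and mutant (M1 to M3, red) embryo, circles for females and triangles for males, with the group mean and SD in black. Fgf10 and Fgf18 are the 2 genes in which every mutant lies above every control, and control 3 lies far above the other controls for Fgf3 and Fgf15.

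Genes reaching a normalised count of 10 in 3 or more libraries entered the test, which left 15599 genes, among them 6 of the 9 ligands (Fgf3, Fgf4, Fgf8, Fgf10, Fgf15 and Fgf16). None of the 6 passed limma with an adjusted p under 0.05, a threshold that 0.0128% of all genes tested passed (2 genes, both lower in mutants). Leaving out control 3 raised that share to 0.0577% (9 genes), with none of the ligands among them. At an unadjusted p under 0.05 the count was also 0 of 6, against 3.83% of all genes (2.17% with mutants higher). On the recovered reads edgeR and DESeq2 likewise called 0 of the 6, while calling 1 and 8 genes of all (0.00641% and 0.0513%). On the log2 scale 5 of the 6 were higher and 1 lower in mutants, while by the mean of the normalised counts 4 were higher, since Fgf15 changed sides. The 6 had a median log2 fold change of 0.15, beside 8065 higher of 15599 and a median of 0.01 over all genes tested. In the authors' deposited table of all genes each of the 9 ligands had an adjusted p of 1. None of the 9 was listed in the authors' deposited table of selected genes, which holds only a small part of all genes. The shares of all genes with that adjusted p, and of all genes selected, were not computed. Neither observation therefore sets the ligands apart from other genes.

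Fgf8, the leading ligand of the second heart field and of the pharyngeal epithelia, had normalised counts of 428, 380.5, 353 and 504 in the 4 control embryos, in order, while the 3 mutant embryos had 579, 348 and 412. Mutant 1 was the highest and mutant 2 the lowest of all 7 embryos, so the groups overlapped across their whole range. Control embryos averaged 416 ± 65.9 (SD, n = 4) and mutant embryos 446 ± 119 (SD, n = 3). On the log2 scale mutants differed from controls by 0.08 (SE 0.19), with a limma adjusted p = 0.974. The 95% interval ran from -0.35 to 0.51, that is from 0.786-fold to 1.42-fold. Without mutant 1 the value was -0.12, and in the 4 female embryos alone -0.04.

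Fgf17 and Fgf18 belong to the same subfamily as Fgf8 and were close to the detection limit. Fgf17 had 2, 5, 6 and 3 reads in the control libraries, against 6, 5 and 5 in the mutant libraries. The groups overlapped, with a difference in mean log2(normalised count + 1) of 0.14 (exact two-sided permutation p = 0.886). Fgf18 had 3, 1, 2 and 0 reads in the control libraries, against 6, 4 and 7 in the mutant libraries. Every mutant thus lay above every control, as it did in 1.29% of the genes below the filter with at least as many reads and in 1.02% of all genes with a read below it. The 0 in control 4 allows a level of up to 0.419 CPM (reads scaled to a common library size; 3 reads of that library), close to the pooled level of the mutants. Pooled, the 6 control reads gave 0.139 CPM (exact Poisson 95% interval 0.0511 to 0.303) and the 17 mutant reads 0.428 CPM (0.249 to 0.685), and these intervals cover counting error only. The difference in mean log2 value was 1.44 with an exact two-sided permutation p = 0.0571, and 35 arrangements cannot give a p below 0.0286. With no filter on low values limma gave Fgf18 an SE of 0.55 and an adjusted p = 0.893, so the difference did not pass.

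Fgf9 and Fgf16 form another subfamily, known for signals from the inner and outer linings of the heart to its muscle. Fgf9 had 8, 5, 10 and 1 reads in the control libraries, against 4, 4 and 12 in the mutant libraries. Control 3 and mutant 3 were the highest embryos, and the difference in mean log2 value was 0.01 (exact two-sided permutation p = 1). Fgf16 had normalised counts of 7.77, 8.25, 10.1 and 16.4 per control and of 20.5, 16.0 and 5.43 in mutants. Mutants 1 and 2 were at the high end, while mutant 3 was the lowest of all embryos. Mutants differed from controls by 0.25 on the log2 scale (SE 0.48, limma adjusted p = 0.971; 95% interval -0.85 to 1.35). The embryo names fall into a lower number range (controls 1 and 2, mutants 1 and 2) and a higher one (controls 3 and 4, mutant 3), whose meaning the labels do not state. Within the lower range the Fgf16 difference was 1.08 and within the higher range, with its 1 mutant, -1.11. The interaction of genotype with number range did not pass (-2.19, SE 0.68, limma adjusted p = 0.9999).

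Fgf10, a ligand of the second heart field that is best known for lung and limb outgrowth, was the least variable member and the 1 tested member in which the groups did not overlap. Its normalised counts were 208, 214, 229 and 216 in the control embryos, against 277, 241 and 238 in the mutant embryos. All mutants were above all controls, by a small margin between control 3 and mutant 3. Among the 15599 genes tested 3.7% had mutants above controls without overlap, 2.08% had mutants below controls, and 5.78% had no overlap in either direction. Control embryos averaged 217 ± 8.95 (SD, n = 4) and mutant embryos 252 ± 21.8 (SD, n = 3). The log2 difference was 0.21 (SE 0.09), with a 95% interval from -0.000129 to 0.43. This did not pass (limma adjusted p = 0.967), and the adjusted p was 0.349 or higher in all 21 alternative fits, in which the value ran from 0.13 to 0.29. Between the sexes the differences pointed the same way, 0.13 in the female and 0.37 in the male embryos, the latter from 1 mutant. Across the 7 embryos the root mean square spread of Fgf10 around its mean was 0.13 on the log2 scale. The median was also 0.13 over genes with a mean count of at least 50, leaving out predicted genes and genes without a symbol.

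**Figure D2:**
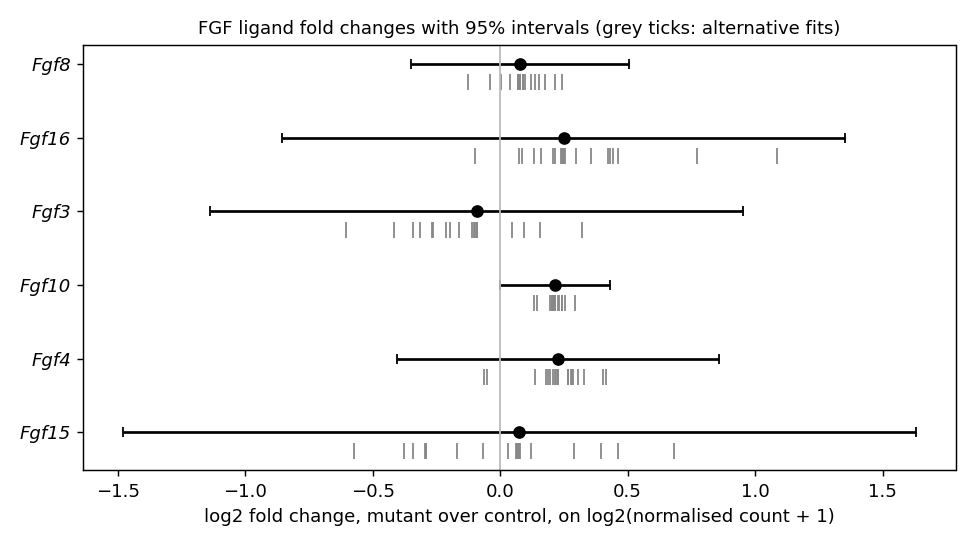
Log2 fold change of mutants over controls on log2(normalised count + 1) (horizontal axis) for the 6 FGF ligand genes that entered the test, with 95% intervals as black bars and the values of the alternative fits as grey ticks. All 6 intervals include 0, that of Fgf10 at its lower end, and the widest is that of Fgf15, from -1.48 to 1.63.

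Of the chromosome 7 genes, Fgf3 and Fgf15 varied more between embryos of 1 genotype than between genotypes. Fgf15, a ligand of the hindbrain and pharyngeal region, had normalised counts of 98.5, 44.9, 382 and 80.2 in the control embryos, against 66.4, 116 and 192 in the mutant embryos. Control 3 exceeded control 2 by 8.51-fold, and all 3 mutants lay within the range of the controls. Mutants differed from controls by 0.08 on the log2 scale (SE 0.68), with a limma adjusted p = 0.996. Its sign was not stable: the mean of the normalised counts was lower in mutants (125 ± 63.1, SD, n = 3) than in controls (152 ± 156, SD, n = 4), and the log2 difference was -0.29 with edgeR and with DESeq2, -0.34 without control 2 and 0.68 without control 3. In the 4 female embryos alone it was -0.38.

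The embryos ranked by Fgf15 stood in exactly the order given by the mean level of the 13 neural tube genes, from control 2 over mutant 1, control 4, control 1, mutant 2 and mutant 3 to control 3. That order was shared by 0.147% of all genes tested (23 genes). When the neural tube level entered the fit, the log2 difference of Fgf15 was -0.57 (SE 0.28), with a limma adjusted p = 0.878. At similar neural tube levels of 8.12 and 8.07, control 3 had a Fgf15 count of 382 and mutant 3 of 192. A marker of hindbrain segments also varied between embryos: Egr2, a regulator of segment identity, had 89.0, 2.75, 285 and 39.3 in control embryos but 6.83, 6.09 and 9.05 in mutant embryos. The part of neural or hindbrain tissue in the Fgf15 values was not tested beyond that covariate.

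Fgf3, which in the mouse helps to induce the inner ear from the hindbrain, had 65.7, 47.7, 181 and 58.9 in controls and 71.3, 50.2 and 101 in mutants. Control 3 was again the highest and mutant 3 the next, while mutant 2, the third embryo with a high neural tube level, had one of the lowest values. The log2 difference was -0.09 (SE 0.45), with a 95% interval from -1.14 to 0.95 and a limma adjusted p = 0.989, and without control 3 it was 0.32. The ratio of Fgf15 to Fgf3 counts ran from 0.932 in mutant 1 and 0.942 in control 2 to 2.11 in control 3 and 2.32 in mutant 2, so the 2 genes did not move in fixed proportion.

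Fgf4, between Fgf3 and Fgf15 in the genome, did not share their pattern. Its counts were 43.2, 33.0, 30.2 and 40.9 in control embryos, against 64.4, 32.7 and 37.1 in mutant embryos. Control 3, the highest embryo for both neighbours, was the lowest for Fgf4, and mutant 1 was the highest. The log2 difference was 0.23 (SE 0.27), with a 95% interval from -0.40 to 0.86 and a limma adjusted p = 0.967, and it was -0.06 without mutant 1. Centred on their means, the log2 levels of Fgf4 and Fgf8 differed by a root mean square of 0.14 over the 7 embryos, against 0.76 for Fgf4 and Fgf3 and 1.13 for Fgf4 and Fgf15. This measure depends on the spread of each gene: Fgf10, which hardly varied, was also 0.61 from Fgf3 and 0.94 from Fgf15.

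**Figure D3:**
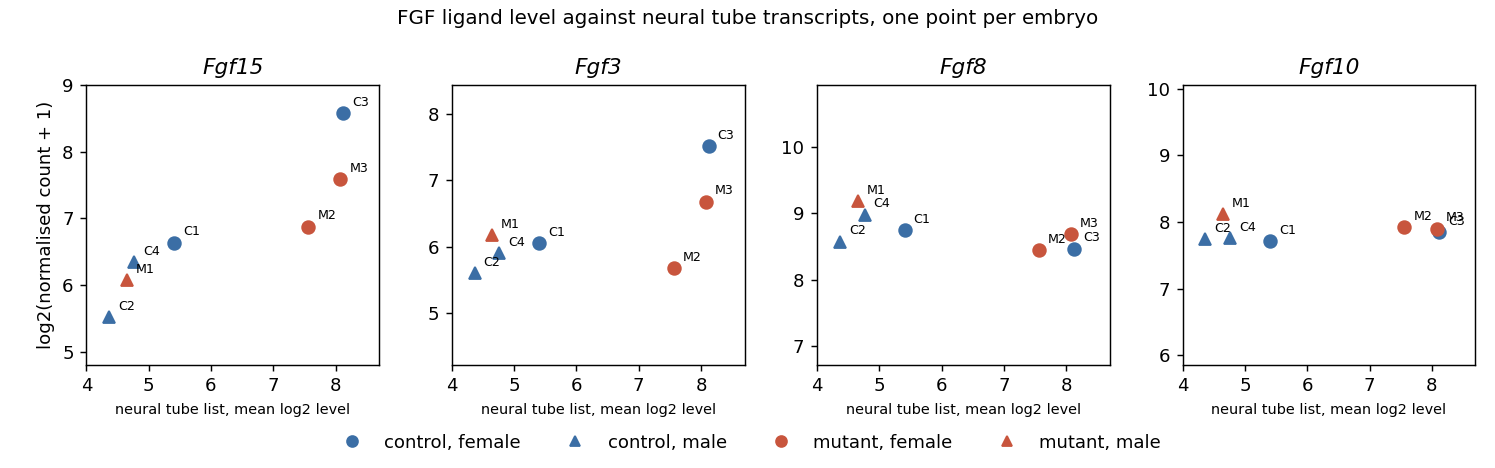
Level of Fgf15, Fgf3, Fgf8 and Fgf10 on the log2(normalised count + 1) scale (vertical axes, each spanning the same width) against the mean log2 level of the neural tube genes (horizontal axis), 1 point per embryo, coloured by genotype and shaped by sex. Fgf15 stands in the same embryo order as the neural tube genes, Fgf3 does so only in part, and Fgf10 hardly varies.

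By the same measure, the genes most like each ligand over the 7 embryos were looked up among 11090 genes with a mean normalised count of at least 50. Predicted genes (Gm numbers, Rik names) and genes without a symbol were left out of these candidates. Fgf15 was closest to Adgrv1 (0.24), Ajap1 (0.28) and the neural progenitor factor Sox2 (0.28), where the median over candidates was 0.96. Candidates numbered 11091 for Fgf4 and Fgf16. Fgf3 was closest to Crabp1 (0.21), a retinoic acid binding protein, then Slc38a3 (0.23) and Gpr162 (0.24). Fgf4 was closest to Ctgf (0.13), a matricellular protein, to Fgf8 (0.14) and to the epithelial regulator Grhl2 (0.14). Fgf8 was closest to Trappc6a (0.06), the epidermal growth factor receptor ligand Tgfa (0.08) and Mrpl34 (0.09). Fgf10 was closest to Zfp651 (0.01), Ahdc1 (0.03) and Prr12 (0.04). Fgf16, with 6 to 21 reads a library, had no gene closer than Myo7a (0.31), followed by Alg8 (0.34) and Tuba1c (0.36). The median over candidates was 0.64 for Fgf3, 0.35 for Fgf4, 0.28 for Fgf8, 0.18 for Fgf10 and 0.60 for Fgf16. It was lower for ligands that varied less, so distances of different ligands are not on 1 footing. These are descriptions over 7 embryos, with 1 library each and unequal depth.

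Genes that FGF signalling induces were described beside the ligands. None of the 13 response and feedback genes passed, 9 were higher and 4 lower in mutants on the log2 scale, and their median log2 fold change was 0.05. Mutant 1, the embryo with the highest Fgf8, Fgf4, Fgf10 and Fgf16, was also the highest embryo for 9 of the 13, or 69.2%, where it was the highest for 14.1% of all genes tested. Dusp6, a phosphatase that turns off ERK, had 1160.2, 919.5, 898 and 928 in controls and 1348 in mutant 1, with 967 and 852 in mutants 2 and 3. Etv5, an ETS factor induced by the pathway, had 1628 to 1943 in controls, 2470.0 in mutant 1 and 1719 and 1745 in mutants 2 and 3. The members with the smallest p were Spred2 (0.19, SE 0.10), Dusp4 (0.16, SE 0.10) and Spred1 (0.14, SE 0.09), all inhibitors of the ERK cascade, with a limma adjusted p of 0.967 each. Mutant 1 also had the highest mean log2 level of the surface ectoderm genes, 7.65 against 6.76 to 7.30 in controls, where mutants 2 and 3, at 7.51 and 7.45, were also above every control. Singly, 1 of these 11 genes had every mutant above every control, as had 3.7% of all genes tested. That gene, Trp63, had normalised counts of 8.64, 12.8, 3.36 and 4.91 in controls and 34.2, 17.5 and 18.1 in mutants. Among controls only control 2 reached 10, so Trp63 passed the filter through its mutant values. The surface ectoderm level without Trp63 was not computed. The mean level of the 7 other FGF family genes tested, described below, also separated by group. It was 4.82 to 4.98 in mutants against 4.55 to 4.68 in controls. Singly, 0 of these 7 genes had every mutant above every control. The 7 include the binding protein Fgfbp3, with a log2 difference of 1.28, and the mean level without it was not computed. Mutant 1 was highest as well for the anterior second heart field genes, 9.98 against 9.66 to 9.80 in controls, and the part of tissue makeup in its ligand levels was not tested.

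Of 7 receptors and co-receptors 6 were tested and none passed. Fgfr1, the main receptor of mesoderm, had a log2 fold change of 0.16 (SE 0.11), Klb, a co-receptor of endocrine FGFs, -0.62 (SE 0.88), and Fgfr2 0.09 (SE 0.24). Klb and Fgfr4 were lowest in mutant 1, with 3.91 and 48.8, against at least 29.4 and 106 in the other 6 embryos. That embryo also had the lowest mean log2 level of yolk sac endoderm genes, 5.82 against 7.82 to 9.39 in the others. The part of tissue makeup in these receptor values was not tested.

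**Figure D4:**
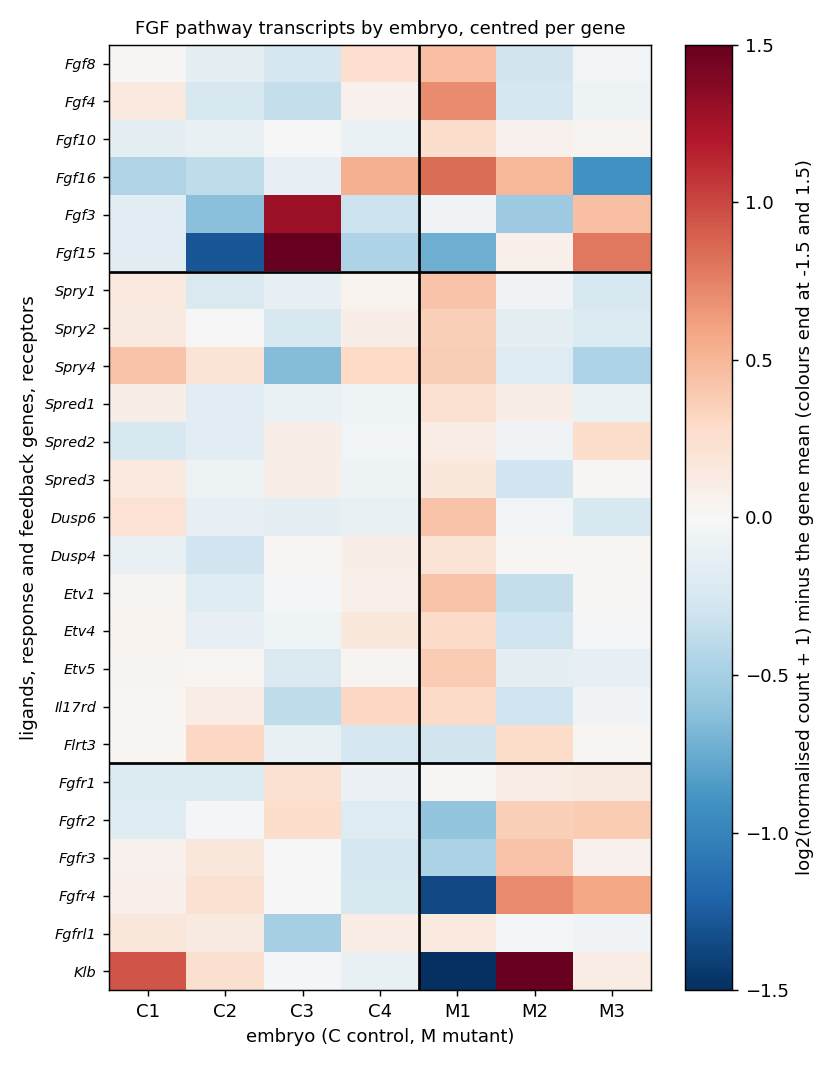
Centred level, log2(normalised count + 1) minus the mean of the gene over 7 embryos (colour), of the tested FGF ligands, the 13 response and feedback genes and the tested receptors (rows, separated by lines) in controls C1 to C4 and mutants M1 to M3 (columns). Mutant 1 is the highest embryo for 4 of the 6 ligands and 9 of the 13 response genes, and control 3 for Fgf3 and Fgf15.

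The tissues known to make these ligands were represented unequally. Of the marker lists, all 13 tested neural tube, all 7 tested somite and all 6 tested tail bud genes were higher in mutants by mean log2 level (median differences 1.14, 1.18 and 0.75), as did 10 of 11 surface ectoderm genes (median 0.39) and 7 of 9 midbrain and hindbrain genes (median 0.19). All 10 heart muscle genes (median -0.28), all 9 endothelial genes (median -0.23) and all 10 yolk sac endoderm genes (median -0.81) were lower in mutants on the same scale. By the mean of the normalised counts 6 of the 7 somite, 5 of the 9 midbrain and hindbrain and 1 of the 10 yolk sac endoderm genes were higher in mutants. For the anterior and posterior second heart field and the pharyngeal endoderm the medians were -0.01, -0.22 and -0.09, with 5 of 10, 3 of 9 and 3 of 10 higher. None of these genes passed limma with an adjusted p under 0.05. Genes of a list are not replicates, since all were measured in the same 7 embryos. The mean log2 level of the neural tube genes ran from 4.37 to 8.12 in controls and from 4.65 to 8.07 in mutants. For heart muscle it ran from 10.66 to 12.43 in controls and from 10.89 to 12.17 in mutants. The groups overlapped in this level for every marker list except surface ectoderm.

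Fgf10 and Fgf15 overlap annotated antisense transcripts: Gm16263 at Fgf10, with 0 to 2 reads a library, and Gm26793 and Gm39119 at Fgf15, with 2 to 11 and 0 to 5. The library kit keeps strand, per the labels' protocols, but the sources do not state whether counting used it, so reads of these pairs cannot be told apart, but the antisense counts were small beside 132 to 317 reads of Fgf10 and 49 to 342 of Fgf15.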

How the data were processed

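RNA of 7 embryos was sequenced as polyadenylated, strand-keeping libraries, per the labels' protocols. Per the submitters' processing notes the tools included HISAT2, Subread with featureCounts, and limma, edgeR and DESeq2, on build GRCm38; which tool did what is not recorded there. The values deposited by the authors are a normalised signal: in each library 100% of values above 0 were whole multiples of 1 step (tolerance 0.1), so whole reads were recovered. The p-value, its adjustment and the ratio of mutant to control means are as the authors deposited them. Symbols turned into dates (14) were replaced from GENCODE M21, which matched 48144 identifiers.

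The test across genes was limma 3.58.1 with a trended prior (R 4.3.3) on log2(normalised count + 1), which understates changes of low genes, with Benjamini-Hochberg adjustment over 15599 genes. Fgf9, Fgf17 and Fgf18, below the filter, were compared by exact permutation of 7 embryos, unadjusted. Alternatives used edgeR 4.0.16, DESeq2 1.42.0 and limma-voom on recovered reads, other scalings, filters and covariates, and left out each embryo. The 9 ligands, the gene lists and the rule for named genes (the ligands, up to 3 list genes with the smallest p, the 3 genes most like each ligand) were chosen with earlier results of these data known. Dusp6, Etv5, Fgfr4 and Egr2 were named after their values were seen. The labels do not say whether embryos share a litter.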

Additional observations from a re-analysis of the deposited data

Results flagged for a closer look

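In 4 controls, 1 sample far from the others was looked for in each of the 9 ligands, a comparison that chance meets in about 1 group in 20. Control 3 stood apart for Fgf3, with a normalised count of 181 against 47.7 to 65.7 in the other controls, and for Fgf15, with 382 against 44.9 to 98.5. Its gap to the nearest control was 0.865 and 0.841 of the whole range, above the critical value of 0.829. On the log2(normalised count + 1) scale, looked at after seeing the data, these gaps were 0.762 and 0.636 and neither passed it. Control 3 also had the highest mean log2 level of neural tube genes among controls, 8.12 against 4.37 to 5.40, and of midbrain and hindbrain genes, 7.88 against 5.14 to 6.69. The part of these tissues in its Fgf3 and Fgf15 values was not tested. No tested ligand had a genotype effect that differed between the sexes or number ranges at an adjusted p under 0.05.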

How the results depend on the processing

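The count of ligands called was 0 in all 21 alternative fits. The count of all genes called, 2, was 1 with edgeR, 8 with DESeq2, 0 with limma-voom, 1 with sex and 1 with number range as a covariate, 0 in female embryos alone and 0 in the lower number range alone, and ran from 1 to 9 over fits leaving out 1 embryo (9 without control 3). The sign turned for Fgf15 with edgeR and DESeq2 (-0.29 each), a sex term (-0.17) or a neural tube term (-0.57), in females alone (-0.38) and without control 2 (-0.34), control 4 (-0.07) or mutant 3 (-0.30). It turned for Fgf3 with number range as a covariate (0.045), in the lower range alone (0.10) and without control 3 (0.32) or mutant 2 (0.16), for Fgf4 in females (-0.051) and without mutant 1 (-0.063), for Fgf8 in females (-0.039) and without mutant 1 (-0.12), and for Fgf16 without mutant 1 (-0.10). Below the filter it turned for Fgf17 without control 1 (-0.16) and for Fgf9 without control 2 (-0.04), control 4 (-0.40) or mutant 3 (-0.46). Over fits leaving out 1 embryo the highest values were 0.68 for Fgf15, 0.77 for Fgf16, 0.42 for Fgf4, 0.24 for Fgf8, 0.34 for Fgf17 and 0.34 for Fgf9. Where a cause is not in the construction of the fit, the cause was not tested. Fgf10 and Fgf18 kept their sign in every fit run, Fgf18 between 1.06 and 1.78. Without 1 control the permutation test cannot go below 0.1, and without 1 mutant not below 0.0667. With 0 to 12 reads a library, Fgf9, Fgf17 and Fgf18 are limited by depth. No paired analysis was possible because the labels give no replicate number that groups share.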

Other observations

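Other FGF family genes outside the 9 ligands were measured as well. Of 15 such genes (with 2 FGF-binding proteins) 7 were tested, 5 higher and 2 lower in mutants on the log2 scale. Their median difference was 0.20, and none passed. Fgf13, a family member that stays inside the cell and acts on ion channels and microtubules, had normalised counts of 237, 223, 264 and 216 in control embryos, against 262, 282 and 262 in mutant embryos (0.20 on the log2 scale, SE 0.10, with a limma adjusted p = 0.967). Fgf11, another intracellular member, stood at -0.26 (SE 0.22). Fgfbp3, which releases FGFs from the matrix, had 32.0, 29.3, 95.1 and 16.4 in control embryos, against 58.6, 70.0 and 155 in mutant embryos. The log2 difference was 1.28 (SE 0.57), with a limma adjusted p = 0.967, and the value of control 3 fell between those of mutants 2 and 3. In the authors' deposited table of selected genes Fgfbp3 is listed with a ratio of 2.19 and a DESeq2 p-value of 0.0454. The heading does not mark that value as adjusted, so it is not on 1 footing with the adjusted p. Before adjustment the limma p of Fgfbp3 was 0.0561. Fgf21 had no read in any library.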
